A study of Mus musculus with 35 samples.

Results

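The 8 libraries described here are the mRNA libraries of control mouse hippocampus, chosen as every column of the mRNA count table whose name marks a control. They are 8 of the 19 mRNA libraries and of the 35 samples of a series on the hippocampus after status epilepticus (SE, prolonged seizures) induced with the muscarinic agonist pilocarpine. Each library holds poly(A) RNA of the left hippocampus of a C57BL/6J mouse, male or female and 6 to 7 weeks old, that received scopolamine, which blocks peripheral cholinergic effects, and then 0.9% sodium chloride as vehicle in place of pilocarpine. The late controls are 3 mice that serve as the reference for both 36 h and 120 h after SE. Their column names mark them as t0, while their source names read 36-120 hour. The time at which they were killed after vehicle is therefore not established, and late names the reference set only. The early controls are the 2 mice of the 1 h time point and the 3 mice of the 8 h time point. All 8 mice shared strain, age, scopolamine and vehicle, and each library is 1 animal.

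The hippocampus is a folded sheet of cortex in which the granule neurons of the dentate gyrus drive the pyramidal neurons of CA3, which in turn drive those of CA1. Its excitatory neurons are rich in glutamate receptors, calmodulin and the kinases it activates, the proteins through which synapses strengthen with use. Astrocytes, oligodendrocytes, microglia, interneurons and blood vessels share the tissue, and the choroid plexus, an epithelium that secretes cerebrospinal fluid, lies against it in the ventricle without being part of it. Abundances are compared between genes in TPM, which corrects counts for exon length and library size, and the level of 1 gene between libraries is given in CPM, which corrects for the normalised library size alone. The exon lengths behind TPM may differ from the gene models used for counting.

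Counts per library ranged from 11762428 to 21752867, and 19906 to 21442 genes had at least 1 count. Batch here names the prefix of each column name, such as G545, and what the prefix marks is not established. All 3 late controls belonged to batch G545, which holds no early control, so the control set and the batch cannot be told apart. Among the early controls, replicate 1 of 1 h and replicate 1 of 8 h belonged to batch G511, replicate 2 of 1 h to G369, and replicates 2 and 3 of 8 h to G317. The 100 most abundant genes took 17.0%, 17.2% and 17.7% of counts in the late controls, against 20.1% and 23.2% in the 1 h controls and 20.6%, 26.4% and 28.1% in the 8 h controls. The difference of -6.40 percentage points had p = 0.0357 in a two-sided exact permutation test, the smallest p that 3 against 5 libraries allow, and 0.107 after adjustment over 3 library properties. For 2 libraries, replicate 3 of the late controls and replicate 2 of the 1 h controls, the X-inactivation transcript Xist and the Y-linked genes went against the male sex listed for them. Xist stood at 0.126, 567 and 671 CPM in the late controls, against 0.676 and 1152 CPM in the 1 h controls and 0.0690, 696 and 0.0951 CPM in the 8 h controls. With sex as listed or the Xist level as a covariate, 2741 or 2605 genes differed between late and early controls, against 3357 without a covariate, and 1349 or 2817 when late replicate 3 or 1 h replicate 2 was left out.

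**Figure D1:**
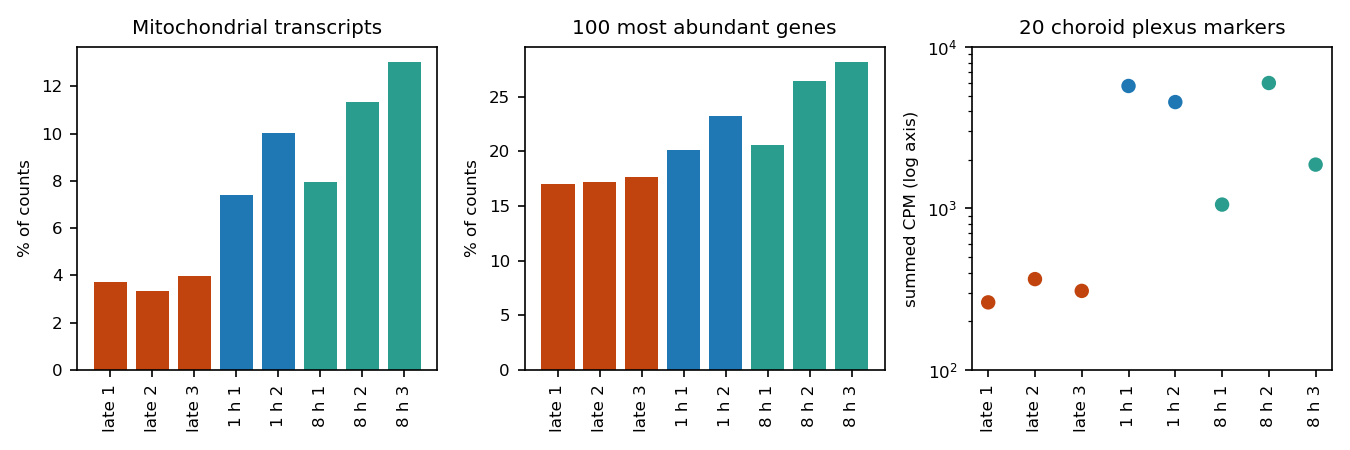
Share of counts of the mitochondrial transcripts (left) and of the 100 most abundant genes (middle), and summed CPM of 20 choroid plexus markers on a log axis (right), with 1 bar or point for each library. The late controls lie below all early controls in each of these, at 3.34% to 3.96% against 7.39% to 13.0% of counts for the mitochondrial transcripts.

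Of 33068 genes with an exon length, 15466 reached a mean of 1 TPM over the 8 libraries, 10064 reached 10 TPM, 1757 reached 100 TPM and 65 reached 1000 TPM. The genes above 1 TPM included 13729 of 20914 protein-coding genes and 201 of 535 lincRNAs. Of all 43629 identifiers, 18041 (41.4%) had no count in any library. The 25 most abundant genes held 23.9% of all TPM and the top 100 held 32.3%, and 558 genes sufficed for 50% of it. Transcripts of the mitochondrial genome made up 18.98% of TPM and 8 of the top 25 genes.

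The most abundant transcript was mt-Co1, which encodes a subunit of cytochrome c oxidase, at 40232 ± 13909 TPM (SD over all 8 libraries, as for the other TPM values here), followed by the cytochrome b transcript mt-Cytb at 33142 ± 12222 TPM and the complex I subunits mt-Nd1 (32303 ± 16856 TPM), mt-Nd2 (23288 ± 13009 TPM), mt-Nd5 (14452 ± 8833 TPM) and mt-Nd4 (12239 ± 5577 TPM). Both mitochondrial ribosomal RNAs were among them, with mt-Rnr1 at 17425 ± 10291 TPM and mt-Rnr2 at 13709 ± 5672 TPM, although the libraries were selected for poly(A). An annotated microRNA gene of 57 bases, mmu-mir-689-2, stood at 11672 ± 15521 TPM, and its TPM rests on that short length. Its level ran over a wide range, with 584, 3210.1 and 3547 TPM in the late controls, against 1507 and 14715 TPM in the 1 h controls and 1499, 24191 and 44122 TPM in the 8 h controls.

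Outside these transcripts, the iron-storage subunit Fth1 led at 5319 ± 1409.5 TPM. It was followed by Cpe, which processes neuropeptides, at 3367 ± 1043 TPM, and the calmodulin gene Calm2 at 3020.5 ± 679 TPM. Calm3, which encodes the same protein, was also in the top 25, at 2074 ± 239.5 TPM. Neuronal genes in the top 25 included the calmodulin-binding postsynaptic protein Nrgn (2716 ± 624 TPM), the neuronal calcium sensor Hpca (2039 ± 488 TPM), Ncdn (1895 ± 589 TPM) and the sodium pump subunit Atp1b1 (2158 ± 310.3 TPM). Genes used by most cells followed close by, namely the actin regulator Cfl1 (2066 ± 404 TPM), the chaperone Hsp90ab1 (2042 ± 416 TPM), the elongation factor Eef1a1 (1968 ± 182 TPM), the glycolytic enzyme Aldoa (1919.7 ± 631 TPM) and the selenoprotein Sepw1 (2506 ± 1164 TPM). Apoe, the main lipid carrier of astrocytes, stood at 2196 ± 455 TPM, and the metallothionein Mt3 at 1933 ± 1161 TPM. The remaining member of the 25 was Ttr, the transthyretin gene of the choroid plexus, whose SD of 3072 TPM exceeded its mean of 2854 TPM.

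**Figure D2:**
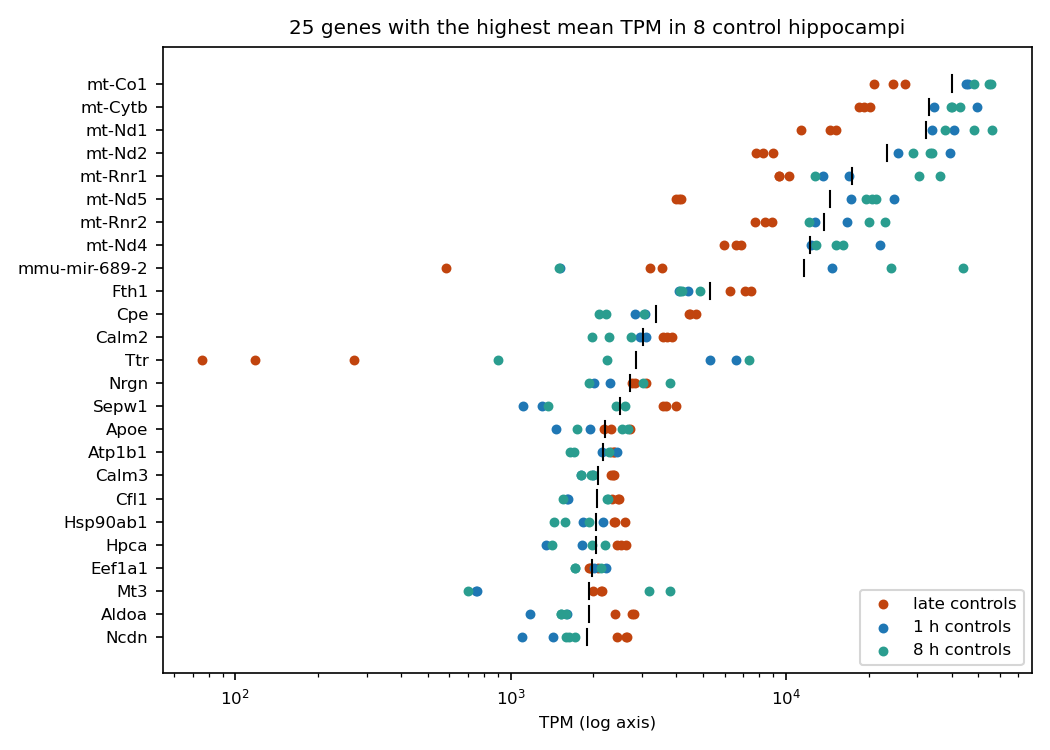
TPM (log axis) of the 25 genes with the highest mean, with 1 point for each of the 8 libraries coloured by control set and a vertical bar at the mean. The points of Eef1a1 span 1713 to 2221 TPM, while those of Ttr span 76.0 to 7326 TPM, with the 3 late controls at 118, 269.9 and 76.0 TPM below all early controls.

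The main targets of calmodulin at the synapse, the CaM kinases, were led by Camk2a (1812 ± 117 TPM) over Camk2b (463 ± 85.8 TPM). The 16 synaptic vesicle genes of the list summed to 9938 ± 358 TPM, led by the fusion protein Snap25 (1253 ± 148 TPM), Cplx2 (1176 ± 146 TPM), which clamps fusion, and Vamp2 (997 ± 102 TPM).

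Among the AMPA receptors, which carry fast excitation, Gria1 (600.5 ± 118 TPM) and Gria2 (399 ± 127 TPM) were the most abundant subunits, and the auxiliary subunit Cnih2 stood at 800.3 ± 255 TPM. NMDA receptor genes, whose products admit calcium on coincident activity, were led by Grin2b (351 ± 116 TPM) and the obligatory subunit Grin1 (193 ± 30.9 TPM), with Grin2a at 20.7 ± 8.03 TPM. The GABA-A receptors, which carry fast inhibition, were led by Gabra5 (247 ± 42.4 TPM). Among the muscarinic receptors, the target of both pilocarpine and scopolamine, Chrm1 (133 ± 10.2 TPM) and Chrm3 (94.6 ± 25.3 TPM) exceeded Chrm4 (12.3 ± 2.51 TPM), Chrm5 (5.13 ± 2.76 TPM) and Chrm2 (4.62 ± 2.11 TPM). Kcnq3 (341 ± 106 TPM) led 20 voltage-gated potassium channels.

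Each of the 21 lists of cell type markers had members above 1 TPM. Markers of dentate granule neurons included Prox1 at 92.7 ± 35.1 TPM and C1ql2 at 77.7 ± 24.4 TPM, those of CA1 pyramidal neurons Wfs1 at 121 ± 31.4 TPM and Mpped1 at 161 ± 21.5 TPM, those of CA3 Dkk3 at 320.2 ± 108 TPM and Bok at 119 ± 76.4 TPM, and those of CA2 Rgs14 at 129.9 ± 56.1 TPM and Pcp4 at 37.5 ± 13.0 TPM. The vesicular glutamate transporter Slc17a7, common to these neurons, stood at 1256 ± 168 TPM. The peptide genes Sst and Cck stood at 952 ± 392 TPM and 881 ± 295 TPM, beside the GABA-synthesising enzyme Gad1 at 123 ± 29.9 TPM. Which cells gave the peptide transcripts was not tested, and their TPM rests on short exons of 599 and 848 bases. In batch G317 they were higher than in the other early controls, by 1.65 and 1.53 on the log2 scale. The myelin gene Mbp reached 1281 ± 330 TPM. The astrocyte glutamate transporter Slc1a2 stood at 823 ± 275 TPM and Gfap at 269.8 ± 62.4 TPM, and microglia showed C1qb at 109.6 ± 34.5 TPM.

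Genes of other organs or other parts of the body axis were near 0. Of 38 Hox genes, which pattern the hindbrain, cord and trunk, 31 had no count in any library and 0 reached 1 TPM. Of 892 olfactory receptor genes, 831 had no count and 3 reached 1 TPM, the highest being Olfr287 at 4.07 ± 0.744 TPM. Blood was represented by Hbb-b1 at 191 ± 72.2 TPM, a globin gene of red cells, whose reads may be shared with its near-identical copy Hbb-b2. Genes listed as markers of tissues next to the hippocampus were also present, with Fezf2 listed for neocortex at 66.0 ± 7.58 TPM, Tcf7l2 for thalamus at 2.87 ± 1.24 TPM and Ppp1r1b for striatum at 51.8 ± 12.0 TPM.

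The SD of log2 CPM over the 8 libraries had a median of 0.344 among 16020 genes tested, and 638 genes (3.98%) had an SD above 1. Within the late controls, all of batch G545, the median SD was 0.119. Within the early controls, of batches G511, G369 and G317, it was 0.313, and within the 3 early libraries of G511 and G369 it was 0.189. Pearson's r of log2 CPM across genes, which are not independent replicates, lay between 0.987 and 0.988 for pairs of late controls, between 0.950 and 0.981 for pairs of early controls and between 0.941 and 0.962 for a late with an early control. Among the early pairs it was 0.976 to 0.981 within G511 and G369, and 0.950 to 0.964 for a G317 library with one of those. The 15 genes with the largest SD fell into a few kinds. Sex-linked genes held the first 5 places, with Xist at an SD of 6.29, Ddx3y at 4.81, Eif2s3y at 4.68, Kdm5d at 4.57 and Uty at 4.28 on the log2 scale. Choroid plexus genes among them were the potassium channel Kcnj13 at 3.28, the bicarbonate transporter Slc4a5 at 3.24, Mfrp at 3.00, the channel subunit Kcne2 at 2.89 and F5, which encodes a coagulation factor, at 2.81. The small nuclear RNA 7SK (3.04), the annotated microRNA CT009594.1 (3.63) and the pseudogene Gm13339 (3.73) made up the named remainder, and Gm13339 and CT009594.1 ranked above the choroid plexus genes.

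At the other end, among genes with at least 50 CPM in every library, the transcription factor Sall2 had an SD of 0.0359 on the log2 scale, with 79.4, 73.4 and 78.7 CPM in the late controls, against 75.8 and 76.7 CPM in the 1 h controls and 76.6, 78.2 and 75.9 CPM in the 8 h controls. The phosphatidylinositol transfer protein Pitpna had an SD of 0.0362, with 311, 313 and 327 CPM in the late controls, against 318 and 327 CPM in the 1 h controls and 307, 315 and 326 CPM in the 8 h controls. Gon4l (0.0422), the neuronal membrane receptor Sirpa (0.0466) and the phosphodiesterase Pde4b (0.0516) were similarly even across both control sets.

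Late and early controls were then compared, since each set serves as the reference for other times after SE. Of 16020 genes tested, 1472 were higher and 1885 lower in the late controls (edgeR quasi-likelihood test, Benjamini-Hochberg adjusted p under 0.05), which is 21.0% of the genes, 9.19% higher and 11.8% lower. Among them 222 were higher and 697 lower by more than 1 on the log2 scale, and the median size of the called changes was 0.73. The median log2 fold change of all genes was -0.03. In 4904 genes (30.6%) the late and early libraries did not overlap. The count fell to 971, 1254 or 1349 when late replicate 1, 2 or 3 was left out, and it was 7004 without the 2 early libraries of batch G317. With the choroid plexus level as a covariate 1 gene, Gm10222, was called, and that level does not overlap between the sets. P-values measure the spread among these mice only, and whether the control set or batch G545 separates the libraries cannot be told apart.

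The clearest difference between the sets lay in genes of the choroid plexus. All 20 markers on the list, 20 of 20 tested, were lower in the late controls, with a median log2 fold change of -4.47 against -0.03 over all genes. Their summed level was 262, 365 and 308 CPM in the late controls, against 5734 and 4557 CPM in the 1 h controls and 1056, 5982 and 1868 CPM in the 8 h controls. No late library overlapped an early one, and the early libraries themselves ranged from 1056 to 5982 CPM. Ttr, which carries thyroid hormone in cerebrospinal fluid, had 40.2, 93.1 and 26.1 CPM in the late controls, against 2401 and 2048 CPM in the 1 h controls and 318, 3259.6 and 1146 CPM in the 8 h controls (log2 fold change -5.11, SE 0.78, adjusted p = 0.00296). The bicarbonate transporter Slc4a5 had 0.168, 0.379 and 0.338 CPM in the late controls, against 36.1 and 32.1 CPM in the 1 h controls and 6.90, 49.4 and 12.3 CPM in the 8 h controls (log2 fold change -6.55, SE 0.81, adjusted p = 0.00137). For the chloride channel Clic6 the values were 1.30, 2.15 and 1.93 CPM in the late controls, against 113 and 61.7 CPM in the 1 h controls and 20.1, 115 and 30.6 CPM in the 8 h controls (log2 fold change -5.26, SE 0.68, adjusted p = 0.00158).

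F5 (-5.51, adjusted p = 0.00175) and Cldn2, a claudin of leaky epithelia (-4.61, adjusted p = 0.0022), showed the same direction on the log2 scale. In bulk tissue, fewer cells of a type and less RNA per cell cannot be told apart. Of the markers of the meninges 3 of 12 were lower and 0 higher, namely Slc13a4 (-2.54), Igf2 (-2.12) and Foxc1 (-1.72), and Slc13a4 is also 1 of the 20 choroid plexus markers. The summed level of the meningeal list overlapped between the sets, at 433 to 906 CPM in the late controls, against 780.1 to 1364 CPM in the early controls. The ependymal list had 2 of 11 higher, Tmem212 (1.75) and Rarres2 (1.34). The calls in these 2 small lists stand beside 9.19% of all genes higher and 11.8% lower.

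Transcripts of the mitochondrial genome were the second group, with 12 of 13 lower in the late controls and a median log2 fold change of -2.05. All mitochondrial transcripts, which add the ribosomal RNAs to this list, took 3.71%, 3.34% and 3.96% of counts in the late controls. Their share was 7.39% and 10.03% in the 1 h controls and 7.97%, 11.3% and 13.0% in the 8 h controls. The complex I subunit mt-Nd5 had 2031, 2108 and 2140.1 CPM in the late controls, against 9417 and 14282 CPM in the 1 h controls and 10385, 13654 and 16230.2 CPM in the 8 h controls (log2 fold change -2.61, SE 0.19, adjusted p = 0.000358). Its neighbour on the genome of the organelle, mt-Nd6, which lies on the opposite strand, had 22.8, 30.0 and 35.3 CPM in the late controls, against 219.6 and 179 CPM in the 1 h controls and 215, 944 and 941 CPM in the 8 h controls (log2 fold change -4.09, SE 0.69, adjusted p = 0.00401), so that the 2 libraries of batch G317 stood apart even from the other early controls. The log2 fold changes of mt-Nd2, mt-Cytb and mt-Nd1 were -2.23, -1.38 and -1.97.

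Gm13339 and Gm13341, pseudogenes on chromosome 2, were also among the 10 genes with the smallest p that were lower in the late controls, and near-identical copies may share their reads, so their levels are uncertain. The named protein-coding genes outside the organelle in those 10 were Rgs17, a regulator of G protein signalling, and Mtap1b, a microtubule-associated protein of axons, and the other 4 identifiers have no name in the annotation. Rgs17 had 38.7, 43.2 and 37.9 CPM in the late controls, against 127 and 120.4 CPM in the 1 h controls and 132, 98.0 and 97.6 CPM in the 8 h controls (log2 fold change -1.53, SE 0.14, adjusted p = 0.00093). Mtap1b had 907, 997 and 957 CPM in the late controls, against 2023 and 2532 CPM in the 1 h controls and 2087, 2007 and 2181 CPM in the 8 h controls (log2 fold change -1.18, SE 0.11, adjusted p = 0.00093). In both the late controls lay within a narrow band below all early ones.

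Nuclear genes for ribosomal proteins and for the respiratory chain went the other way. Of 80 ribosomal protein genes tested, 41 were higher and 0 lower in the late controls, with a median log2 fold change of 0.57. Of all genes, 9.19% were higher and 11.8% lower. Rps23, a protein of the small subunit, had 49.9, 54.1 and 48.2 CPM in the late controls, against 18.1 and 16.5 CPM in the 1 h controls and 19.7, 20.5 and 19.5 CPM in the 8 h controls (log2 fold change 1.43, SE 0.12, adjusted p = 0.000447). The stalk protein Rplp2 had 83.5, 94.1 and 86.9 CPM in the late controls, against 32.4 and 32.0 CPM in the 1 h controls and 41.8, 38.3 and 45.1 CPM in the 8 h controls (log2 fold change 1.22, SE 0.14, adjusted p = 0.00111). Every late library exceeded every early one in both genes, and the log2 fold changes of Rpl9 and Rps3 were 1.06 and 0.90. Ribosomal protein genes have many processed pseudogenes, which may share their reads.

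Of 74 nuclear respiratory chain genes, 34 were higher and 0 lower, with a median of 0.53 on the log2 scale. Ndufb6 of complex I had 52.9, 54.3 and 50.4 CPM in the late controls, against 16.7 and 24.4 CPM in the 1 h controls and 20.2, 19.6 and 24.2 CPM in the 8 h controls (log2 fold change 1.32, SE 0.14, adjusted p = 0.00111), and the log2 fold changes of Cox7a2, Ndufv1 and Sdhd, of complexes IV, I and II, were 1.61, 0.90 and 0.99. Between late and early controls the nuclear and the mitochondrial genes for the same complexes differed in opposite directions. Among the early controls, the 2 libraries of batch G317 had the highest sums of both groups of genes. The nuclear genes summed to 8776 and 10134 CPM in G317, against 6390 to 6978 CPM in G511 and G369. The mitochondrial list summed to 99924 and 119778 CPM in G317, against 65225 to 89802 CPM in G511 and G369. Glycolysis had 9 of 16 genes higher and 0 lower (median 0.45), led by Ldha (0.64), Pfkl (0.83), Pfkm (0.59) and Tpi1 (0.65). Both lists stand beside 9.19% of all genes higher and 11.8% lower. Without late replicate 1, 2 or 3 the calls in these lists fell to 21, 21 and 26 for ribosomal proteins, 17, 19 and 20 for the respiratory chain and 3, 3 and 5 for glycolysis.

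The other higher genes of the 10 with the smallest p were Hint1, a nucleotide hydrolase, the mitochondrial ribosomal protein Mrpl27, Itpa, which clears deaminated purine nucleotides, the RNA polymerase II subunit Polr2g, the actin-sequestering peptide Tmsb4x, the pseudogene Gm6767 and Bok, a BCL2 family member and a marker of CA3. Bok had 97.3, 70.7 and 83.3 CPM in the late controls, against 27.6 and 26.6 CPM in the 1 h controls and 31.4, 32.3 and 39.0 CPM in the 8 h controls (log2 fold change 1.42, SE 0.15, adjusted p = 0.00111). Tmsb4x had 977, 910.1 and 987 CPM in the late controls, against 513 and 512 CPM in the 1 h controls and 477, 463 and 561 CPM in the 8 h controls (log2 fold change 0.92, SE 0.10, adjusted p = 0.00111). The log2 fold changes of Hint1, Mrpl27, Itpa and Polr2g were 1.20, 1.22, 1.10 and 1.02.

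**Figure D3:**
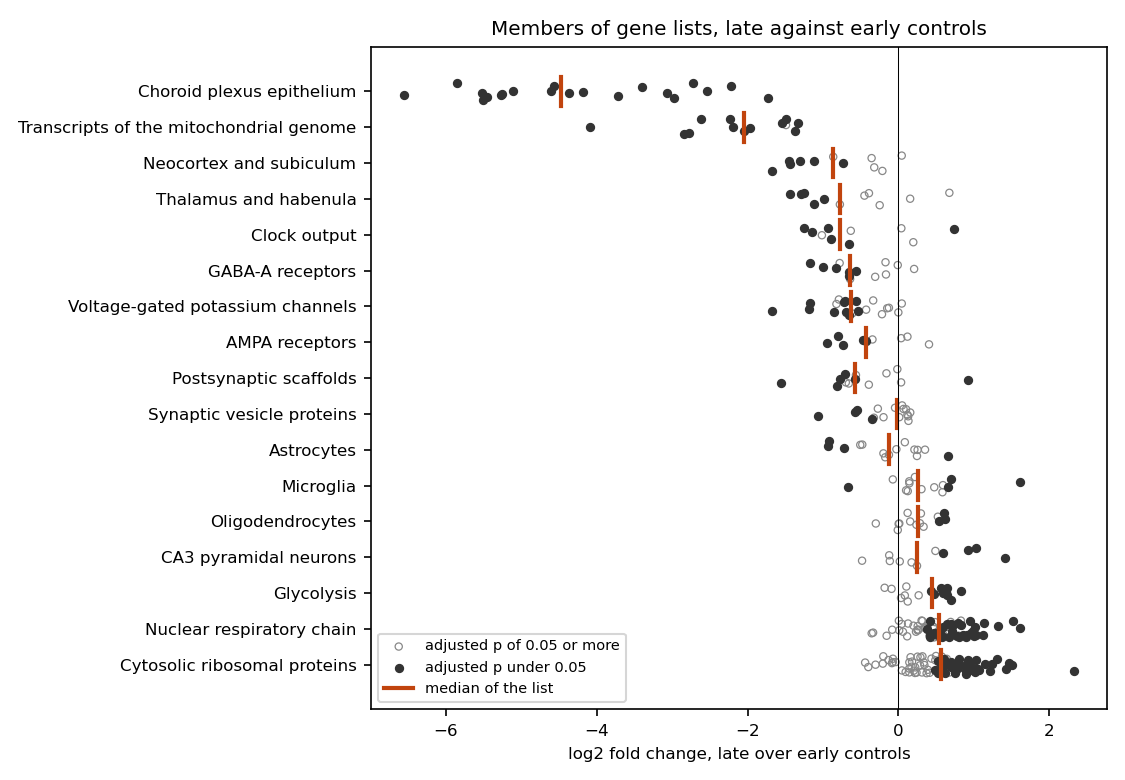
Log2 fold change, late over early controls, of the tested members of gene lists, with filled points for an adjusted p under 0.05, open points for the other members and a vertical bar at each list's median. All tested choroid plexus and mitochondrial genes lie left of 0, with medians of -4.47 and -2.05, while 70 of 80 ribosomal protein and 70 of 74 nuclear respiratory chain genes lie right of it, with medians of 0.57 and 0.53.

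Receptor and channel genes of neurons that passed the test were lower in the late controls in each of the lists given next, beside 11.8% of all genes lower and 9.19% higher. Of 5 equal groups of genes by exon length, the group with the longest exons had 26.4% lower and 1.48% higher. Of 20 voltage-gated potassium channels, which end the action potential and set firing patterns, 10 were lower and 0 higher (median log2 fold change -0.63). Kcna2, found on axons, had 21.2, 25.4 and 25.3 CPM in the late controls, against 53.4 and 66.2 CPM in the 1 h controls and 58.1, 51.7 and 44.0 CPM in the 8 h controls (log2 fold change -1.19, SE 0.15, adjusted p = 0.00149). Kcnh7 (-1.68) and Kcnb2 (-1.17) also passed. Of 13 GABA-A receptor subunits, 6 were lower and 0 higher (median -0.64), with Gabrg3 at 16.4, 21.7 and 19.9 CPM in the late controls, against 45.8 and 39.8 CPM in the 1 h controls and 38.2, 32.8 and 35.6 CPM in the 8 h controls (log2 fold change -0.99, SE 0.15, adjusted p = 0.00295), beside Gabrb1 (-1.17). Without late replicate 1, 2 or 3 the potassium channel calls were 4, 4 and 5 and the GABA-A calls 1, 4 and 3.

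Among glutamate receptors, 5 of 9 AMPA receptor genes (median -0.43), 2 of 6 NMDA, 3 of 7 kainate and 2 of 7 metabotropic receptor genes were lower and 0 higher, beside 11.8% of all genes lower. In the group of genes with the longest exons, 26.4% were lower. The AMPA calls were led by auxiliary subunits, Shisa9 (-0.94), Cacng2 (-0.74) and Cacng3 (-0.80), with the pore subunit Gria4 (-0.43), and 1 of the 9 was called when any 1 late library was left out. Grin2a, the NMDA subunit of mature synapses, had 17.2, 21.8 and 23.7 CPM in the late controls, against 32.7 and 59.2 CPM in the 1 h controls and 46.1, 36.5 and 40.7 CPM in the 8 h controls (log2 fold change -1.04, SE 0.20, adjusted p = 0.00721). Postsynaptic scaffolds had 5 of 13 lower and 1 higher, with Dlgap1 (-0.82), Shank2 (-0.71) and Dlgap2 (-0.57) lower and Homer3 higher (0.92). Among the muscarinic receptors, Chrm2 was lower (-1.29, adjusted p = 0.00458) and the other 4 did not pass, with Chrm1 at -0.10 and Chrm3 at 0.34. The calmodulin genes Calm2 and Calm3 did not pass, at 0.28 and 0.04.

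Cell type lists were compared by their summed level. Of 21 marker lists, 9 did not overlap between the sets, 7 of them lower and 2 higher in the late controls. By the mean log2 CPM of the members, which weights each gene equally, 5 of these 9 did not overlap either (choroid plexus, neocortex and subiculum, thalamus and habenula, astrocytes and microglia), the lists of CA2, Cajal-Retzius, striatum and septum, and proliferating and newborn cells overlapped, and that of CA3 did not. The members called are to be read against the 9.19% of all genes that were higher and the 11.8% that were lower. Apart from choroid plexus, the neocortex and subiculum list summed to 248, 263 and 299 CPM in the late controls, against 506 and 415 CPM in the 1 h controls and 539, 615 and 546 CPM in the 8 h controls, with 6 of 11 members lower and 0 higher. Its called members included the nuclear receptor Rorb (-1.45), Nr4a2 (-1.12), Tshz2 (-1.68) and Fn1 (-0.73). The thalamus and habenula list summed to 215 to 243 CPM in the late controls, against 282 to 423 CPM in the early controls, with 5 of 11 lower, among them Lef1 (-1.12), Ntng1 (-0.98), Rora (-1.29) and Tcf7l2 (-1.25). Striatum and septum had 1 of 11 lower, at 159 to 181 CPM in the late controls, against 196 to 245 CPM in the early controls in sum. These 3 lists were written as markers of tissue that adjoins the hippocampus, but expression of their members within the hippocampus was not tested. Some members, such as Nr4a2, Rora and Rorb, are also in other lists described here. How much such tissue each dissection held was not tested.

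Among cells of the hippocampus itself, markers of proliferating and newborn cells summed to 75.0 to 85.3 CPM in the late controls, against 102 to 148 CPM in the early controls, with 3 of 9 lower, namely Dcx (-0.89), Neurod1 (-1.16) and Sox11 (-1.01), genes of young granule neurons, while 4 of the 9 had a positive log2 fold change. By mean log2 CPM this list overlapped, at 1.81 to 2.05 in the late controls, against 1.73 to 2.16 in the early controls. Cajal-Retzius markers summed to 104 to 124 CPM in the late controls, against 156 to 177 CPM in the early controls, with Reln (-0.57) and Cacna2d2 (-0.70) lower. Astrocyte markers summed to 5388 to 6017 CPM in the late controls, against 6678 to 8170.4 CPM in the early controls, and 3 of 15 were lower, Sox9 (-0.92), Slc1a2 (-0.72) and Atp1b2 (-0.94), and Mlc1 was higher (0.66). Their median log2 fold change was -0.12. In 2 lists the summed level of the late controls was above all early ones. Microglia markers summed to 469.5 to 510.1 CPM in the late controls, against 367 to 457 CPM in the early controls, with Aif1 (1.61), Fcrls (0.66) and C1qa (0.70) higher and P2ry12 lower (-0.67). The CA2 list summed to 185 to 236 CPM in the late controls, against 133 to 166 CPM in the early controls, with Rgs14 higher (0.84) and Fgf2 lower (-1.15), but its mean log2 CPM overlapped, at 3.07 to 3.50 in the late controls, against 3.17 to 3.32 in the early controls.

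The lists of the other principal neurons overlapped in their summed level. That of CA3 did not overlap by mean log2 CPM, at 5.77 to 6.07 in the late controls, against 5.41 to 5.67 in the early controls. Of 11 CA3 markers 4 were higher and 0 lower, with Dkk3 (0.59), Homer3 and Iyd (1.03) beside Bok. CA1 markers were mixed, with 3 of 11 higher, Lefty1 (1.37), Itpka (0.76) and Fibcd1 (0.42), and 2 lower. Dentate granule markers had 1 of 12 higher, Tdo2 (0.85), and 1 lower, Pdzd2 (-0.87). Oligodendrocyte markers had 3 of 14 higher, Mog (0.61), Opalin (0.54) and Cnp (0.61), and interneuron markers had 2 of 15 lower, Erbb4 (-1.13) and Reln. Of 14 endothelial markers Cldn5 (1.41) and Esam (0.83) were higher and Cdh5 lower (-0.57), and of 6 blood markers 0 passed. The counts of the dentate, interneuron and endothelial lists lie near the shares of all genes called, 9.19% higher and 11.8% lower.

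**Figure D4:**
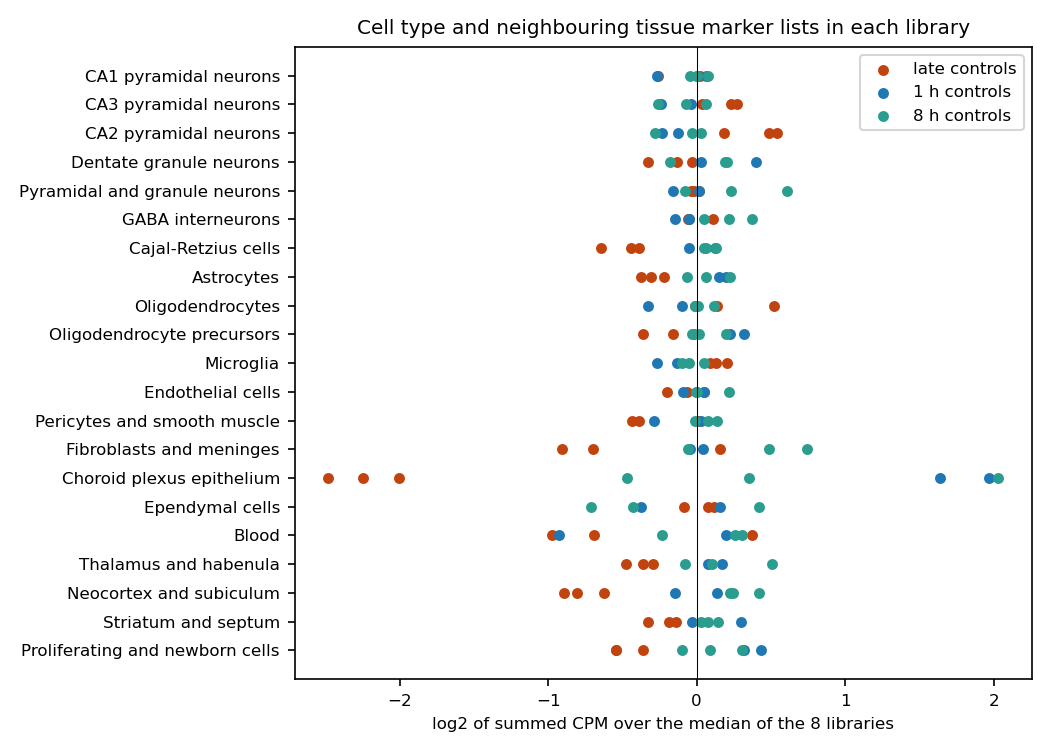
Summed CPM of each of 21 marker lists in the 8 libraries, as log2 of the ratio to the median of the libraries, with 1 point for each library coloured by control set. The choroid plexus row spreads widest, from 262 to 5982 CPM, and the 3 late points lie left of all others in 7 rows and right of them in those of microglia and CA2 pyramidal neurons.

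Genes of the circadian clock and of hormone response, which follow the hour and the state of the animal at death, were examined next, without knowledge of the hour at which each mouse was killed. The calls in these lists stand beside 11.8% of all genes lower and 9.19% higher. Clock output genes had 5 of 10 lower and 1 higher in the late controls (median log2 fold change -0.77). Hlf, a D-box transcription factor, had 100.3, 93.1 and 106 CPM in the late controls, against 186 and 172 CPM in the 1 h controls and 189.5, 211 and 193 CPM in the 8 h controls (log2 fold change -0.93, SE 0.11, adjusted p = 0.00126). Bhlhe41, a repressor of the clock, had 20.9, 21.4 and 23.8 CPM in the late controls, against 45.2 and 35.9 CPM in the 1 h controls and 38.0, 58.7 and 65.1 CPM in the 8 h controls (log2 fold change -1.14, SE 0.21, adjusted p = 0.0055). Usp2 was lower (-0.89) and Nfil3, which opposes Hlf on the same sites, higher (0.74). Of 11 core clock genes 3 were lower, Rorb, Rora and Npas2 (-0.95), and Rorb and Rora are also in the lists of neocortex and thalamus above. Glucocorticoid targets had 5 of 15 lower and 1 higher, led by Zbtb16 (-0.71), Klf9 (-0.68), Hif3a (-1.81) and Plin4 (-2.21). Without late replicate 1, 2 or 3 the clock output calls were 2, 2 and 3.

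Immediate-early genes, which neurons transcribe within minutes of activity, had 4 of 28 higher and 3 lower, with a median of 0.03, close to the 9.19% higher and 11.8% lower among all genes. Arc, which internalises AMPA receptors, had 183, 73.0 and 136 CPM in the late controls, against 55.1 and 68.9 CPM in the 1 h controls and 53.4, 59.8 and 57.7 CPM in the 8 h controls (log2 fold change 1.15, SE 0.23, adjusted p = 0.00821). Late replicates 1 and 3 lay far above the early range of 53.4 to 68.9 CPM, and late replicate 2 lay just above it. Nr4a2, which is also a neocortical marker, was lower (-1.12), as was Sik1 (-0.70), and Nptx2 was higher (0.75). Of 14 cytosolic heat shock genes 0 passed, with log2 fold changes of -0.52 for Hspa4l, -0.54 for Hspa1b and 0.22 for Hsp90ab1. Of 16 cholesterol synthesis genes 4 were higher, led by Fdps (0.71).

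Promoters were read for members of the clock output, core clock and ribosomal protein lists, whether or not they were called, to show which known elements their sequence holds. The windows run from 250 bases before to 50 bases after the start of the gene in RefSeq (build GRCm38.p6) and are written 5′ to 3′ on the strand of the gene, with the element in capitals, the cAMP response element in Hlf, the E-box in Bhlhe41 and the pyrimidine run of 10 bases in Rplp2. Of all 27025 promoters, 7.24% hold the E-box CACGTG, 1.88% the cAMP response element TGACGTCA and 0.955% the D-box TTATGTAA, each searched on both strands. Of 8 clock output promoters found, 2 hold the E-box (Tef and Bhlhe41) and 1 the cAMP response element (Hlf), and of 10 core clock promoters 2 hold the E-box (Per1 and Cry1) and 1 the D-box (Per3). A run of at least 8 C or T within 5 bases of the start, the feature of ribosomal protein messages, stands in 21 of 61 ribosomal promoters (34.4%) and in 9.63% of all promoters. The runs of Rps23, Rpl9 and Rps3, also higher in the late controls, were shorter, at 6, 4 and 2 bases. Hlf lies at chr11:90390868-90391167, minus strand, Bhlhe41 at chr6:145865371-145865670, minus strand and Rplp2 at chr7:141447401-141447700, plus strand. A match describes the letters in the window only.
Hlf: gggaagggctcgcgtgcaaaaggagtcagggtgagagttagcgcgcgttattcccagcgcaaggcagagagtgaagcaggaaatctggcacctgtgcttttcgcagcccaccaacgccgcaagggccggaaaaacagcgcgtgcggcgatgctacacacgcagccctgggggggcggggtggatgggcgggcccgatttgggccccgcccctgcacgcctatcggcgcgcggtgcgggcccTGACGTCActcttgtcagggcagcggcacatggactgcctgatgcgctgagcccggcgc
Bhlhe41: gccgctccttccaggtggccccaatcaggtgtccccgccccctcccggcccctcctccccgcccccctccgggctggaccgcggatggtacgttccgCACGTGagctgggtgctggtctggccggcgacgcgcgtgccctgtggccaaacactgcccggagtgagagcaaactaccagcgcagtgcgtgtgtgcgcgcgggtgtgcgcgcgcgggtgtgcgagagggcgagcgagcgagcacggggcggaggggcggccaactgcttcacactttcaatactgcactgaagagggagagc
Rplp2: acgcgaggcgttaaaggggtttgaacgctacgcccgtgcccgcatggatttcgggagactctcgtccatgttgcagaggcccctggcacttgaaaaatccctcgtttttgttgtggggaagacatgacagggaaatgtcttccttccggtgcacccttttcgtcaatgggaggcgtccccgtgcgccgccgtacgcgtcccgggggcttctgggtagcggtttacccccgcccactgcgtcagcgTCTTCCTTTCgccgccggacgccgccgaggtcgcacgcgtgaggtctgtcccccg

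The difference between the sets also followed exon length. In 5 equal groups of genes from the shortest exons to the longest, the median log2 fold change, late over early, was 0.21, 0.14, 0.02, -0.08 and -0.29, and genes higher in the late controls made up 17.6%, 14.2%, 9.49%, 4.75% and 1.48% of each group. Genes lower in the late controls made up 7.22%, 4.19%, 8.01%, 12.0% and 26.4%. Across 5 groups of rising exon GC content the medians were -0.26, -0.07, 0.05, 0.12 and 0.08. After removal of the trend with length and GC from each library, 1679 of all 14142 genes tested were higher and 1943 lower. In that fit 32 of 80 ribosomal genes were higher and 5 lower (median 0.33), and 30 of 74 respiratory chain genes were higher and 3 lower (median 0.28). The choroid plexus list then had 20 of 20 lower, the mitochondrial list 12 of 13 and the potassium channels 12 of 20 with 1 higher, while GABA-A receptors had 5 lower and 1 higher.

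**Figure D5:**
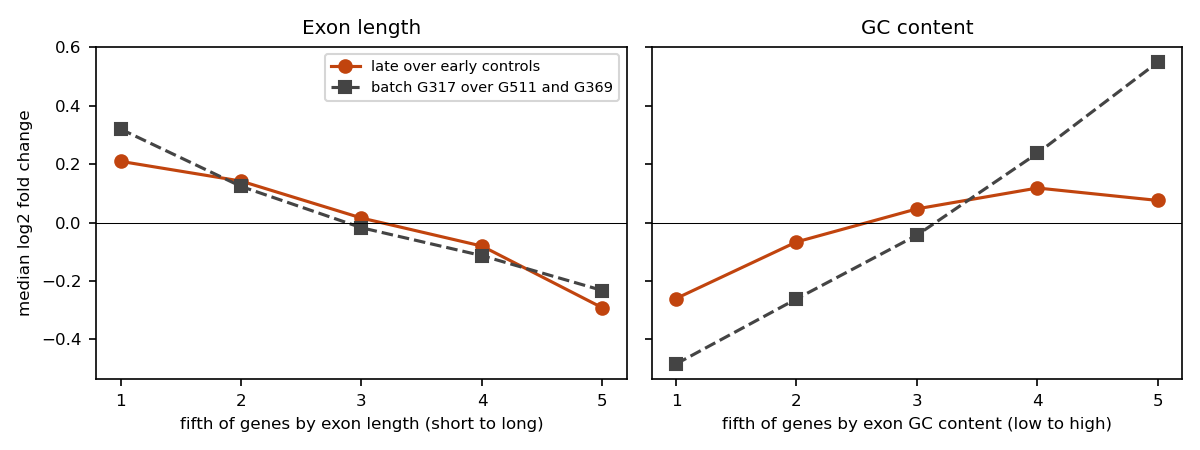
Median log2 fold change of genes in 5 equal groups by exon length (left, short to long) and by exon GC content (right, low to high), for late over early controls (circles) and for batch G317 over G511 and G369 within the early controls (squares). Both lines fall with length, to -0.29 and -0.23 in the group with the longest exons, and the G317 line climbs with GC, at -0.48 in the group of lowest GC and 0.55 in that of the highest.

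Within the early controls, 8 h and 1 h mice were compared on 15857 genes. At an adjusted p under 0.05 in edgeR's quasi-likelihood test 0 genes differed (0.0%), while DESeq2 called 14 genes and the likelihood ratio test 12. Without adjustment, 2148 genes (13.5%) had a p under 0.05. In 5222 genes (32.9%) the groups did not overlap. The 5 genes with the smallest p in each direction are given as values, all at an adjusted p of 0.36. Hspa5, the main chaperone of the endoplasmic reticulum, had 195, 134 and 118 CPM in the 8 h controls, against 417 and 285 CPM in the 1 h controls (log2 fold change -1.23, SE 0.25, adjusted p = 0.36). Homer1, a scaffold with an activity-induced short form, had 108, 90.6 and 80.7 CPM in the 8 h controls, against 188 and 156 CPM in the 1 h controls (log2 fold change -0.88, SE 0.18, adjusted p = 0.36). Iigp1, an interferon-induced GTPase, had 2.76, 1.92 and 1.52 CPM in the 8 h controls, against 10.1 and 8.07 CPM in the 1 h controls (log2 fold change -2.11, SE 0.32, adjusted p = 0.36). These 3 genes lay lower in each 8 h library than in both 1 h libraries. The histamine receptor Hrh3 had 51.4, 68.8 and 78.0 CPM in the 8 h controls, against 33.1 and 28.2 CPM in the 1 h controls and the receptor-modifying protein Ramp3 4.97, 6.59 and 7.32 CPM in the 8 h controls, against 2.40 and 2.12 CPM in the 1 h controls, with log2 fold changes of 1.12 and 1.48.

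Hba-a1, Slc35b2 and mt-Nd4l had log2 fold changes, 8 h over 1 h, of 1.45, 0.99 and 2.05, and Upf2 had -0.80. The remaining lower identifier has no name in the annotation. The comparison is mixed with batch, since 2 of the 3 libraries of 8 h belong to G317 and no library of 1 h does. Only batch G511 holds both times, with 1 library of each. A fit with batch as a covariate thus sets 1 library against 1, and its count is not given here. Without replicate 1 of 8 h, the library of 8 h that shares batch G511 with a 1 h library, 3343 genes were called. In that fit every 8 h library is of G317 and no 1 h library is, so time and batch cannot be told apart.

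Batches within the early controls were set against each other, in a comparison chosen after the libraries had been seen to stand apart. The 2 libraries of G317 differed from the 3 of G511 and G369 in 4322 of 15857 genes (27.3%), 2287 higher and 2035 lower in G317 (14.4% and 12.8%), and 9061 genes (57.1%) did not overlap. The count was 157 without replicate 3 and 1902 without replicate 2 of 8 h. Mt3, a metallothionein of neurons and astrocytes, had 625 and 855 CPM in G317, against 120.5, 129 and 109.9 CPM in G511 and G369 (log2 fold change 2.63, SE 0.15, adjusted p = 0.000199), while the late controls had 322, 325 and 302 CPM. Rpl28 had 188 and 236 CPM in G317, against 53.9, 48.4 and 56.8 CPM in G511 and G369 (log2 fold change 2.01, SE 0.13, adjusted p = 0.000391). The mitochondrial protein gene Chchd10 had 228 and 259 CPM in G317, against 73.5, 72.8 and 60.8 CPM in G511 and G369 (log2 fold change 1.82, SE 0.12, adjusted p = 0.000391). All 3 were higher in both G317 libraries than in any other early control, as were mt-Nd6, given above, and an identifier without a name.

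In the other direction, the cilia regulator Rfx3 had 71.3 and 72.5 CPM in G317, against 172, 165 and 154 CPM in G511 and G369 (log2 fold change -1.18, SE 0.10, adjusted p = 0.000954), and Rc3h2, which promotes decay of messages, had 72.1 and 70.4 CPM in G317, against 138, 137 and 138 CPM in G511 and G369 (log2 fold change -0.95, SE 0.10, adjusted p = 0.00115). Fam126b and Matr3 had log2 fold changes, G317 over G511 and G369, of -1.14 and -1.04, and Skil had 58.2 and 55.5 CPM in G317, against 117, 112 and 114 CPM in G511 and G369. Among the lists, 34 of 80 ribosomal protein genes were higher and 7 lower in G317, and 40 of 74 respiratory chain genes were higher and 1 lower. Of 13 GABA-A receptor genes 7 were lower and 0 higher. These counts stand beside 14.4% of all genes higher and 12.8% lower in this comparison. Of the 20 choroid plexus markers 0 passed in this comparison. By exon length, the median log2 fold change was 0.32 in the group with the shortest exons and -0.23 in that with the longest. The late against early comparison shares these early libraries, so its values and those of G317 are not independent.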

How the data were processed

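The authors prepared stranded poly(A) libraries from 200 ng of total RNA with an RNA integrity number above 7.9 and sequenced paired reads of 53 cycles. They demultiplexed reads with bcl2fastq, trimmed them with BBDuk, aligned them, per the study's methods, to NCBIM37 (mm9) with HISAT2 2.1.0 and counted genes with HTSeq. The deposited values are raw read counts per gene, and replicates were not pooled. Names, positions and exon lengths of 33068 of 43629 identifiers came from Ensembl release 65 of NCBIM37, and 10561 had none. The table holds identifiers later than the annotation named in the study's methods, so the gene models and build used for counting are uncertain, and TPM rests on exon lengths that may differ from them.

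Genes kept by filterByExpr were normalised by TMM and compared with the quasi-likelihood test of edgeR 4.0.16 in R 4.3.3, with p-values adjusted by Benjamini-Hochberg across every gene in the fit and called at 0.05. TPM used summed exon lengths, CPM the effective library size and log2 CPM a prior count of 1. Of the list members, 11 were not found. Steps were tested on simulated counts.

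Genes named are the 10 higher and 10 lower genes with the smallest p and no overlap (5 each for values below the threshold and for the batch comparison), up to 4 members with the smallest p and up to 5 with the highest TPM of each list described, the 25 most abundant genes and the 15 with the largest SD. A few further genes, among them Sall2, Pitpna, Gon4l, Sirpa, Pde4b, Olfr287 and Gm10222, were chosen after their values had been seen, and some genes that the rule names are not reported here. The libraries, lists and tests were chosen with earlier results of these data known. The comparison of batch G317 and the adjustments for length and GC were chosen after seeing the data. Alternatives were the likelihood ratio test, DESeq2 1.42.0, RLE normalisation, no filter, covariates, a replicate block, batches or libraries left out and all 19 mRNA libraries in 1 fit. The small RNA table was not used. Promoter sequences are from RefSeq, build GRCm38.p6.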

Additional observations from a re-analysis of the deposited data

How the results depend on the processing

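For late against early controls, 3357 genes differed in the fit described. The count was 7004 without the early libraries of batch G317, 1 with the choroid plexus level as a covariate, and 971 to 4376 with 1 library left out, the 3 lowest counts being those without a late control. In the other settings it stayed within 1.5 times, at 3344 with RLE normalisation, 3939 with the likelihood ratio test, 4361 with DESeq2, 3084 without a filter, 2539 without batch G511, 4272 against 1 h alone, 3274 against 8 h alone, 4839 in 1 fit of 19 libraries and 3622 with the length and GC trend removed. Replicate numbers were not taken to pair the mice. Deviations of same-numbered libraries had r of -0.103 to 0.153, and in groups of 2 and 3 mice such r can neither show nor exclude pairing. A replicate block gave 2434 genes. Of 152 named genes followed over 25 settings, 4 changed sign, each with the choroid plexus covariate. Esam stood at -0.27 under it, against 0.83 without it, Sik1 at 0.031, against -0.70, Mid1 at 0.75, against -1.36, and Ide at 0.0054, against -0.43. The cause was not tested. For 8 h against 1 h, where edgeR's quasi-likelihood test called 0 genes, the likelihood ratio test called 12, DESeq2 14, the fit without a filter 845, the replicate block 39, batch as a covariate 337, the fit without batch G511 5249 and the fit of 19 libraries 1632, and with 1 library left out the count was 0 to 3343. For G317 against G511 and G369, with 4322 genes, it was 157 to 3972 with 1 library left out. Genes at 1 TPM or more numbered 15438 to 15510 with 1 library left out. The median SD of log2 CPM, 0.344 in all, was 0.332 with a prior count of 5, 0.119 within the late and 0.313 within the early controls, and 0.326 to 0.348 with 1 library left out. Marker lists without overlap numbered 9, with 6 by mean log2 CPM, 8 without the highest member of each list and 9 to 12 with 1 library left out.

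Depths of 11762428 to 21752867 counts and groups of 2 and 3 mice limit the calls. All late controls share batch G545, so no fit with batch as a term can separate the sets.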
